A study of Homo sapiens with 12 samples.

Results

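Induced K303R estrogen receptor was compared with induced Y537S estrogen receptor by the open chromatin of the cells that carried them. The members were 13007 regions open in both K303R libraries with doxycycline (Dox) and in neither Y537S library with Dox, called K303R-only, and 11938 regions with the opposite pattern, called Y537S-only. They were 11.0% and 10.1% of the 118515 regions in the 4 libraries, and 31747 regions (26.8%) were open in all 4. To choose them, each of the 4 peak lists on chromosomes 1 to 22 and X was cut to its 97243 peaks with the largest −log10 p, peaks that overlapped by at least 1 bp were merged, and a region counted as open in a library that had a peak in it. These 2 counts describe how the members were chosen and were given no test.

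The assay was ATAC-seq, where a transposase cuts accessible DNA and leaves sequencing adapters at the cuts. MDA-MB-453, the established cell line used, is a human breast cancer line known for a luminal and estrogen receptor negative character. The series held 12 libraries, 1 for each of 3 engineered lines under each of 4 treatments of 2 days. The lines expressed K303R, Y537S or wild-type (WT) estrogen receptor alpha from an inducible construct, and the treatments were Dox (2 µg/mL) with estradiol (E2, 1 nM), Dox alone, E2 alone, or neither. The groups compared were therefore K303R with Dox+E2, K303R with Dox, Y537S with Dox+E2 and Y537S with Dox, at 1 library each, and the other 8 libraries were used to look up the same regions. The construct's promoter, the number of clones behind each line and the origin of the cultures are not stated in the labels. The receptor's form rests on the labels.

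The estrogen receptor is a transcription factor that binds an inverted repeat of GGTCA, the estrogen response element, when estradiol fits its ligand-binding domain, and it recruits coactivators that open chromatin. Y537S lies in that domain and is known for activity without hormone in metastatic, hormone-treated breast cancer. K303R lies in the hinge that joins the DNA-binding and ligand-binding domains and is known for a heightened response to low estrogen. In luminal cells the receptor works beside FOXA1 and GATA3.

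With 1 library per group there was no replicate error and no test of K303R against Y537S, and with 2 libraries against 2 no two-sided exact permutation p could go below 0.333. Intervals given with shares are exact (Clopper-Pearson, 95%) and cover counting error only. The tags in the peak names, read here as runs, put all K303R libraries in 1 run together with WT untreated and WT E2, all Y537S libraries in another, and WT with Dox and with Dox+E2 in a further one. Between the mutants, receptor form and run cannot be told apart. With Dox against without Dox inside a mutant, and Dox+E2 against Dox inside WT, lie within a run. A pair of values for a line stands for Dox+E2 and then Dox alone, or, without Dox, for E2 alone and then untreated. The background pileup, which scales with depth, was 0.192 and 0.210 fragments in K303R and 0.364 and 0.329 in Y537S. The weakest kept peak had a summit of 3 fragments in K303R and 7 in Y537S, which is 15.6 and 14.3 against 19.3 and 21.3 times background. The untreated K303R library had the lowest signal, 22.6 times its background over the regions open in all 4, where the other 11 libraries had 36.1 to 74.5 times. Of the luminal markers with a promoter window, FOXA1 had a pileup of 21 and 21 in K303R and 37 and 39 in Y537S. GATA3 had 9 and 16 in K303R and 17 and 17 in Y537S. KRT8 had 10 and 6 in K303R and no peak in Y537S with Dox. That absence was part of the choice of regions, and the KRT8 region had 8 and 5 in Y537S without Dox. SPDEF had 7 and 6 in K303R and 10 and 0 in Y537S, and ESR1 had no peak in its window in any of the 4. The promoters of KRT5 and TP63, basal markers, and of PTPRC, a blood cell marker, had no peak in the 4 libraries.

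Promoters showed a difference in sequence between the sets that the choice of regions did not use. K303R-only regions overlapped 465 promoter windows and Y537S-only regions 192, each window reaching from 250 bases before a RefSeq gene start to 50 after it. GGTCA, on either strand, was present in 30.8% of the windows over K303R-only regions (exact 95% interval 26.6 to 35.2%) and in 68.8% of those over Y537S-only regions (61.7 to 75.2%). Of all 34789 windows 37.3% held it, and of the 13518 windows under regions open in all 4 34.0% did. GGTCA is the core of each arm of the estrogen response element and is shared with the sites of many other nuclear receptors.

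The windows printed below are those of the coding genes with the strongest regions that covered at least 150 of the 300 bases, 4 in each direction, and that of PGR, the progesterone receptor gene and a classic estrogen target. They show the letters behind that difference. Sequences are from RefSeq (GRCh38.p14), 5′ to 3′ on the gene's strand, with matches to the searched motifs in capitals. Those under K303R-only regions were:
LRRC31 (chr3:169869886-169870185, minus strand): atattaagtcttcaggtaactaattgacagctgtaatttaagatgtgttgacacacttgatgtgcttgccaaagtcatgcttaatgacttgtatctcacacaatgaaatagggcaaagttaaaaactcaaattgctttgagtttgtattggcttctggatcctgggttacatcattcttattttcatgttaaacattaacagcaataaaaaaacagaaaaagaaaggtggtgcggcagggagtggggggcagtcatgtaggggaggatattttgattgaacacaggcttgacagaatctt
DCDC2B (chr1:32208839-32209138, plus strand): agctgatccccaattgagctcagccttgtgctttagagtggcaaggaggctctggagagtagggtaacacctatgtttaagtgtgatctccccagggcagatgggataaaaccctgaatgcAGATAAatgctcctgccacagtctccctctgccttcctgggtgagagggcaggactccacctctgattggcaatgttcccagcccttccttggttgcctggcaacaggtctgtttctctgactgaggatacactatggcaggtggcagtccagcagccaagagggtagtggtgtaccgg
E2F3 (chr6:20403364-20403663, plus strand): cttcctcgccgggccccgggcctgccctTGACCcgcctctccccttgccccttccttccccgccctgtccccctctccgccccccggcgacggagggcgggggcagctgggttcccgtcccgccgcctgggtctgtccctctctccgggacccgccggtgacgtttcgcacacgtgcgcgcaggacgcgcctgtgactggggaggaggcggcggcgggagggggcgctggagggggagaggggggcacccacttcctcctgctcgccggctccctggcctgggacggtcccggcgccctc
N4BP3 (chr5:178113282-178113581, plus strand): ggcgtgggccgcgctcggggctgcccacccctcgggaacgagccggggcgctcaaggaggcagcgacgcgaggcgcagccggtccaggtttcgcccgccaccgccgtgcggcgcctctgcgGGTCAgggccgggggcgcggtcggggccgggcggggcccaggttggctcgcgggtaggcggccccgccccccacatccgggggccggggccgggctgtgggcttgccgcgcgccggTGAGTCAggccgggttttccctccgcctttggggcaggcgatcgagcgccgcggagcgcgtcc
PGR (chr11:101129764-101130063, minus strand): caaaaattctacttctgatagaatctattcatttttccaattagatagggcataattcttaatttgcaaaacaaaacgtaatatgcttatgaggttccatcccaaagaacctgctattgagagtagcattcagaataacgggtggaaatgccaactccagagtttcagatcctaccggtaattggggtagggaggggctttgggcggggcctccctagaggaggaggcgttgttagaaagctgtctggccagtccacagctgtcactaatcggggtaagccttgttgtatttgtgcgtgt

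The LRRC31 window had a pileup of 14 with Dox+E2 and 18 with Dox in K303R, and of 7 and 6 in Y537S, where the peaks fell below the length limit. LRRC31 encodes a leucine-rich repeat protein. Without Dox this region had 14 (E2) and 12 (untreated) in K303R and 16 and 19 in Y537S, so it was open in both lines before induction. None of the searched motifs occurs in its 300 bases. DCDC2B, of the doublecortin domain family, had 12 and 15 in K303R and 4 and 0 in Y537S, and its capitals mark a GATA core. E2F3, a cell cycle transcription factor gene, had 11 and 14 in K303R and 7 and 7 in Y537S and holds 1 GGTCA. N4BP3 had 11 and 13 in K303R and 6 and 7 in Y537S and holds 1 GGTCA and 1 AP-1 site. The PGR window had 10 and 10 in K303R and 0 and 7 in Y537S, no peak in K303R without Dox, and none of the searched motifs.

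The windows under the Y537S-only regions were:
BRICD5 (chr16:2210814-2211113, minus strand): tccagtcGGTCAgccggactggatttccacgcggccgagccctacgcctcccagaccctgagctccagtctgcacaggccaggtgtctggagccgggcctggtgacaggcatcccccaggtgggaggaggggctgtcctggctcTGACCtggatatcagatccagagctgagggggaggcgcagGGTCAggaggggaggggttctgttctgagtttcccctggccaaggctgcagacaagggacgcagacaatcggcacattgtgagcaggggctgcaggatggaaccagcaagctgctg
MICAL2 (chr11:12161829-12162128, plus strand): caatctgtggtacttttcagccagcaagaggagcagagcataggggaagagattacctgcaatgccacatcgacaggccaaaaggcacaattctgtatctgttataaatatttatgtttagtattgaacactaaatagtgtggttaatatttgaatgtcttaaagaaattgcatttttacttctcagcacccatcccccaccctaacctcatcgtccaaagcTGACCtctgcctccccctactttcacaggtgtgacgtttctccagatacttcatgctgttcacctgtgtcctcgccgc
NR1I2 (chr3:119782460-119782759, plus strand): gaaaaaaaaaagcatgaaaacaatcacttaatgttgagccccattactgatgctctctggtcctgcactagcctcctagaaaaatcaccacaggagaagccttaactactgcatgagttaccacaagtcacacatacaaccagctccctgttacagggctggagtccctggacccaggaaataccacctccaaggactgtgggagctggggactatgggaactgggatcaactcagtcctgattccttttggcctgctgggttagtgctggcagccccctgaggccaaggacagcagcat
F2 (chr11:46718963-46719262, plus strand): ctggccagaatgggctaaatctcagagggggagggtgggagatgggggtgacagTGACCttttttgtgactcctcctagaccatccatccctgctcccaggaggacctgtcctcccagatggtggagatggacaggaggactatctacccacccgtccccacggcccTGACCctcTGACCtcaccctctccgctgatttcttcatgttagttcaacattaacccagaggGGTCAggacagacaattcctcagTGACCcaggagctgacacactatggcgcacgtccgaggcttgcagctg

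BRICD5, which shares its region with MLST8, a subunit gene of the mTOR complexes, had no peak in any K303R library and a pileup of 37 with Dox+E2 and 28 with Dox in Y537S, beside 5 in Y537S with E2 and 7 in WT with Dox+E2. Its window holds 3 GGTCA matches. MICAL2, which encodes an actin-oxidizing enzyme, had 35 and 28 in Y537S, no peak in the other 10 libraries, and 1 match. F2, the prothrombin gene, had 25 and 30 in Y537S, 9 in WT with Dox+E2, no peak elsewhere, and 5 matches. NR1I2, a nuclear receptor gene that senses foreign chemicals, had 27 and 36 in Y537S and 8 in WT with Dox+E2, and holds no GGTCA. The 4 Y537S-only windows therefore ran from 0 to 5 matches, while the 5 K303R-only windows held 0 or 1.

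Repeated matches separated the sets further. At least 3 GGTCA were found in 4 of the 465 windows over K303R-only regions (0.860%) and in 23 of the 192 over Y537S-only regions (11.98%), against 1.91% of all windows. Among windows covered in full, 31.9% of 116 under K303R-only regions (23.6 to 41.2%) and 81.8% of 55 under Y537S-only regions (69.1 to 90.9%) held GGTCA. Where the Y537S-only region had no peak in Y537S without Dox, 80.5% of 123 windows held it (72.4 to 87.1%), and where it had one, 47.8% of 69 did (35.6 to 60.2%). The same split of the K303R-only windows gave 30.0% of 253 and 32.1% of 215, where a window that met regions of both kinds counted in each. The median GC content of the windows was 61.3% for K303R-only, 55.0% for Y537S-only and 58.7% for all windows, and its part in the difference was not tested. Neighbouring windows can overlap, so they are not fully independent.

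The other motifs did not share this pattern. The complete element, GGTCANNNTGACC, was found in 1 window of each set and in 20 of all windows. An AP-1 site, TGANTCA, was in 12.3% of the K303R-only windows (9.42 to 15.6%), 8.85% of the Y537S-only windows (5.24 to 13.8%) and 7.69% of all. A forkhead site, TGTTTAC, was in 4.52% of the K303R-only windows (2.82 to 6.82%), in none of the 192 Y537S-only windows (up to 1.90%) and in 3.42% of all. The GATA core AGATAA was in 7.96% and 10.4%, against 10.4% of all windows. A match is a description of letters on either strand and not a binding site, and most member regions lie outside promoters, where no sequence was read.

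**Figure D1:**
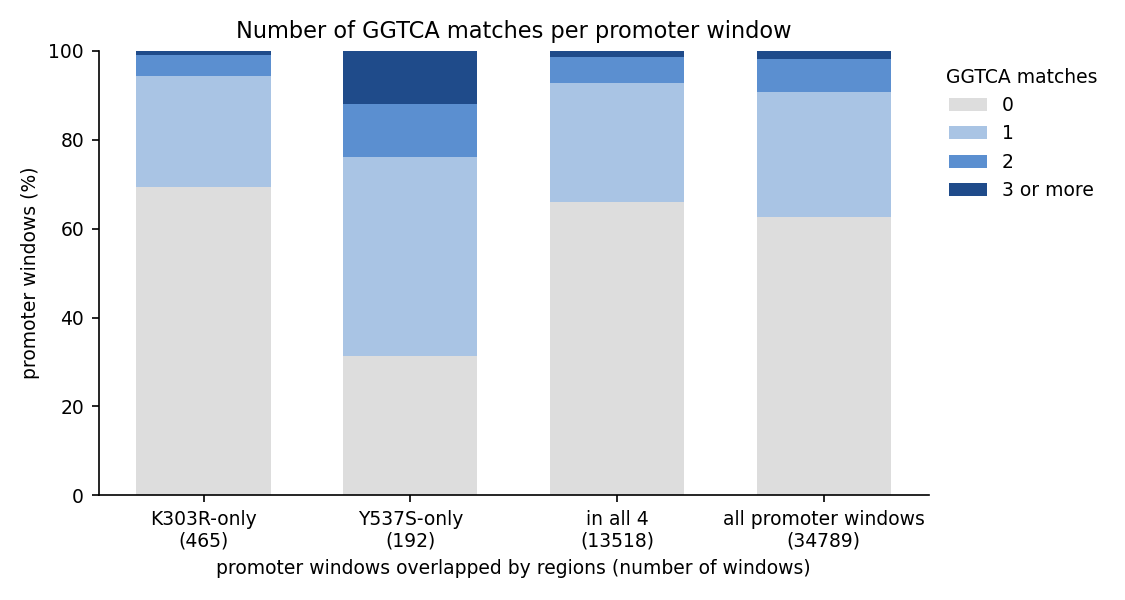
Share of promoter windows (vertical axis, percent) with 0, 1, 2, or 3 or more GGTCA matches on either strand, for windows overlapped by K303R-only regions, by Y537S-only regions, by regions open in all 4 libraries, and for all windows. Windows with no match make up 69.2% of the K303R-only and 31.3% of the Y537S-only column.

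The sets differed in where else they were open, which the choice of members did not use for the 8 other libraries. Of the K303R-only regions, 72.4% had a peak in Y537S with E2 (71.6 to 73.2%) and 67.6% in untreated Y537S (66.8 to 68.4%), looked up in all their listed peaks. Of the Y537S-only regions, 15.5% had a peak in Y537S with E2 (14.9 to 16.2%) and 13.2% in untreated Y537S (12.6 to 13.8%). Of all merged regions 54.8% had a peak in Y537S with E2 and 51.3% in untreated Y537S, so the K303R-only share lay above this background and the Y537S-only share below it. In the 39522 strongest peaks of each library, 15.8% of the K303R-only and 1.78% of the Y537S-only regions were open in Y537S with E2, and 15.9% and 1.43% in untreated Y537S. At that length 17.9% and 21.1% of the K303R-only regions were open in the K303R libraries with Dox+E2 and with Dox themselves, and 24.9% and 24.8% of the Y537S-only regions in the Y537S ones.

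In K303R without Dox the same order held. With E2, 50.9% of the K303R-only regions and 2.71% of the Y537S-only regions had a peak, against 35.2% of all regions. In untreated K303R, the library of low signal, 23.6% and 1.02% did, against 22.5% of all. Of the K303R-only regions 45.8% (5954) had no peak in K303R without Dox, and of the Y537S-only regions 83.0% (9903) had none in Y537S without Dox. The Y537S-only set was thus mostly regions listed in its own line only with Dox, while the K303R-only set mixed regions already open and regions not listed before induction. In all, 82.2% of the K303R-only and 17.5% of the Y537S-only regions had a peak in at least 1 mutant library without Dox.

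Absence from the other mutant was judged at the length limit, which shortened the lists unequally. The full lists held 102713 and 97243 peaks in K303R and 133963 and 132496 in Y537S, so nearly all weaker peaks left out were those of Y537S, and the next shares follow from that. In the full Y537S lists with Dox, 44.6% of the K303R-only regions had a peak below the limit, with pileups of at most 7. In the full K303R lists with Dox, 5.47% of the Y537S-only regions had one, with pileups of at most 3. K303R peaks were kept from 3 fragments and Y537S peaks from 7. A Y537S peak below the limit could therefore hold more fragments than the K303R peak, not scaled for depth. A region inside CTSD (chromosome 11, 1762425 to 1762864) had 4 and 6 in K303R and 6 and 7 in Y537S. Such regions were not counted. A region without a listed peak had a pileup under about 3 to 5 and is not shown to be closed. The K303R-only regions open in untreated Y537S had a median pileup of 10 there, 32.8 times its background. Their pileup in Y537S with Dox was held to at most 7 by the choice of regions, so these levels were not compared.

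In WT with Dox, at 1 library each, the sets differed by hormone. With Dox+E2, 15.8% of the K303R-only (15.2 to 16.4%) and 24.996% of the Y537S-only regions (24.2 to 25.8%) had a peak in WT, against 36.2% of all regions. With Dox alone, 47.0% and 12.8% did, against 43.6% of all. The 2 WT libraries share a run, so the difference between hormone and no hormone lies within it, but the Dox library had the longer list (82091 against 64476 peaks). The K303R-only set thus held 4514 regions open in WT with Dox but not with Dox+E2 (34.7%) and 450 with the reverse (3.46%). The Y537S-only set held 2264 open in WT with Dox+E2 but not with Dox (19.0%) and 808 with the reverse (6.77%). This split was not counted over all regions, where the share was also higher with Dox (43.6%) than with Dox+E2 (36.2%). At equal list length (39522 peaks each), 3.28% of the K303R-only regions were open in WT with Dox+E2 and 11.3% in WT with Dox. Of the Y537S-only regions 6.54% and 1.04% were, so the order was kept in both sets. Regions open in all 4 stood at 64.9% and 65.9% at that length, and the share over all regions was not counted. Without Dox, 60.2% of the K303R-only and 5.16% of the Y537S-only regions were open in WT with E2, and 34.0% and 1.97% in untreated WT, against 41.4% and 27.9% of all regions.

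**Figure D2:**
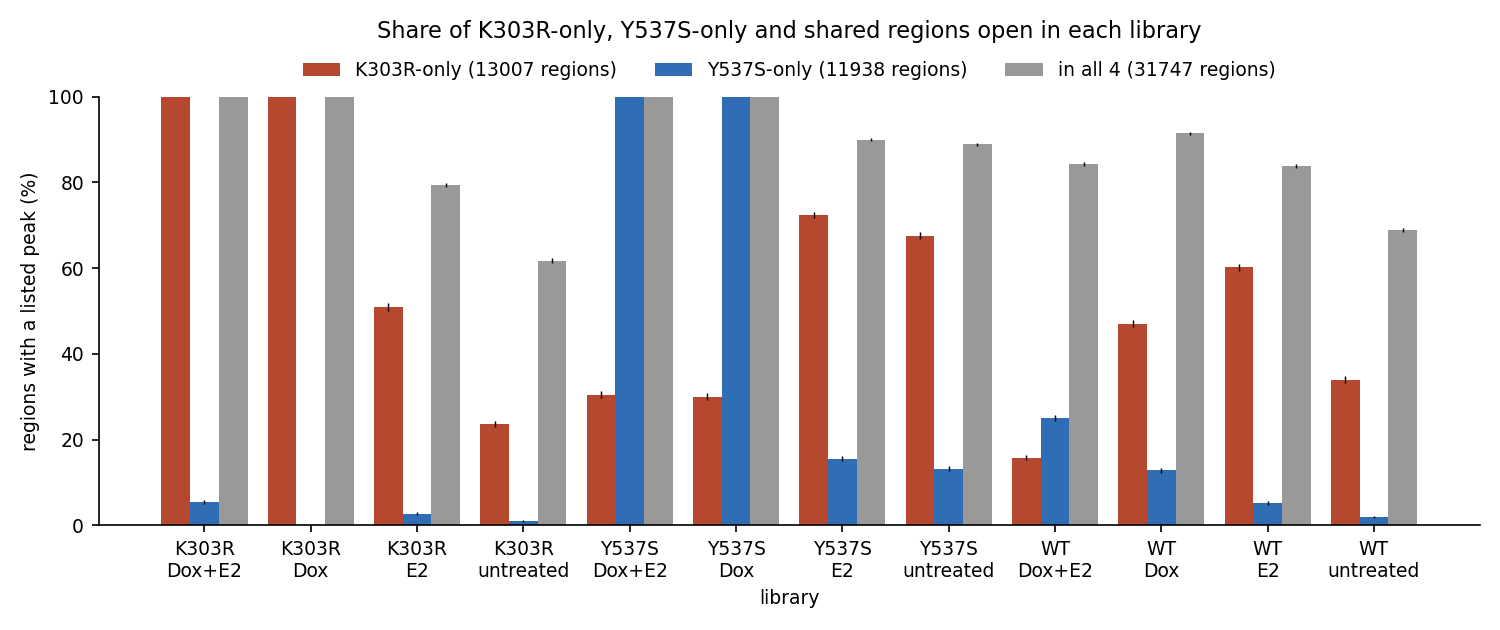
Percent of regions (vertical axis) with a listed peak in each of the 12 libraries (horizontal axis), for K303R-only, Y537S-only and shared regions, with exact 95% intervals. The mutant libraries with Dox chose the regions. In Y537S without Dox the K303R-only bars stand at 72.4% and 67.6% and the Y537S-only bars at 15.5% and 13.2%.

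The shares changed with strength. Regions were ranked by the smaller −log10 q, the peak caller's significance as the authors deposited it, of the libraries that held them. Of the 100 strongest K303R-only regions, 97% had a peak in Y537S with E2 and 98% in untreated Y537S, 60% had one in WT with Dox+E2 and 91% in WT with Dox. Of the 8007 ranked from 5001 on, 65.01%, 59.3%, 10.8% and 36.2% did, so each share was lower there. Peaks below the length limit in induced Y537S followed the same order. With Dox+E2 and with Dox, 64% and 72% of the 100 strongest K303R-only regions had one, and 23.9% and 24.5% from rank 5001 on. In the full K303R list with Dox+E2, 15% of the 100 strongest Y537S-only regions had one. Of the 100 strongest Y537S-only regions, 3% had a peak in untreated Y537S and 81% in WT with Dox+E2 (71.9 to 88.2%), beside 27% in WT with Dox (18.6 to 36.8%). From rank 5001 on, 16.1%, 14.99% and 10.6% did.

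**Figure D3:**
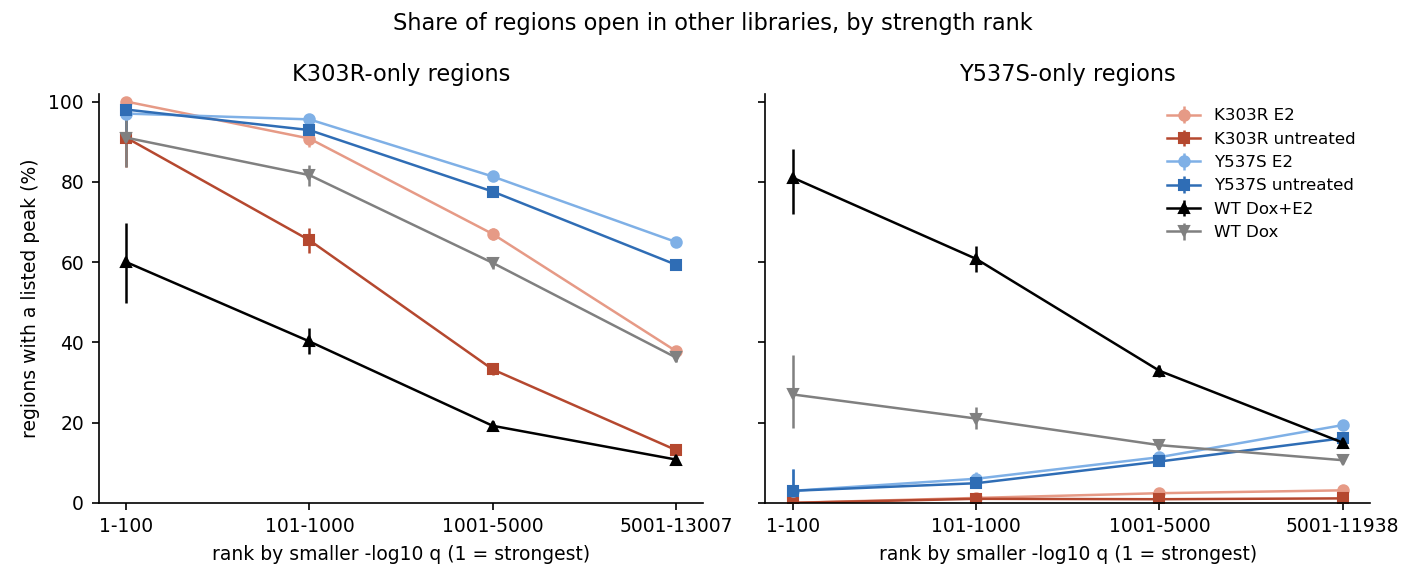
Percent of K303R-only (left panel) and Y537S-only regions (right panel) with a listed peak in 6 libraries, by strength rank (horizontal axis, strongest at the left), with exact 95% intervals. At the left end the Y537S libraries without Dox stand at 97% and 98% for K303R-only and at 3% and 3% for Y537S-only regions, and WT with Dox+E2 at 60% and 81%.

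Member regions were distal more often than regions open in all 4, which were also wider and had higher median summits. The share near a gene start was not counted over all merged regions. Within 1 kb of the start (or, where no start was given, of either end) of a protein-coding gene lay 6.61% of the K303R-only regions (6.19 to 7.05%), 2.59% of the Y537S-only regions (2.31 to 2.89%) and 32.1% of the regions open in all 4. The order of the sets was reversed with peaks at a −log10 q of at least 5 (3.36% and 4.12%) or 10 (4.56% and 5.31%) and no length limit, and with either gene end counted for every gene the shares were 6.51% and 4.17%. Inside genes lay 53.1%, 53.4% and 49.2%. Median widths were 339 bp, 412 bp and 760 bp. The median summit pileup was 6 in both K303R libraries for the K303R-only set (up to 40 with Dox+E2 and 29 with Dox) and 12 in both Y537S libraries for the Y537S-only set (up to 70 and 61). Over each library's background these medians were 31.3 and 28.6 times in K303R and 33.0 and 36.5 times in Y537S.

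The strongest K303R-only region lay inside GRHL2, an epithelial transcription factor gene (hg38, chromosome 8, 101603544 to 101604157). The gene table gives spans without exons, so a region inside a gene may be exonic or intronic. Its pileup was 40 with Dox+E2 and 29 with Dox in K303R, against 5 and 7 in Y537S. Without Dox it was 19 and 14 in K303R with E2 and untreated, and 42 and 49 in Y537S. In WT it was 13 with Dox+E2, 23 with Dox, 23 with E2 and 11 untreated. The choice of regions held the induced Y537S values to at most 7, so they were not compared with the other libraries.

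A region 29.0 kb from DNAJC15, a mitochondrial co-chaperone gene (chromosome 13, 43142799 to 43143320), had 20 and 28 in K303R and 0 and 7 in Y537S, beside 28 and 22 in Y537S without Dox. EPAS1, a hypoxia-inducible transcription factor gene, held a region (chromosome 2, 46306232 to 46306721) with 20 and 20 in K303R and no peak in Y537S with Dox, beside 26 and 16 without. Others of the 12 strongest lay inside ENPP1, KCNMA1, SLC18A2, GOLPH3L and CBLB, near AHI1 and inside LRP11. All 12 had peaks in both mutant lines without Dox and in WT with E2 and untreated. In Y537S with E2 they had 19 to 56 fragments. The induced Y537S libraries had 0 to 7, values capped by the choice of regions.

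The strongest Y537S-only region lay on chromosome 1 (238226785 to 238227452) with no protein-coding gene end within 100 kb. It had 60 with Dox+E2 and 61 with Dox in Y537S, no peak in the 4 K303R libraries or in Y537S without Dox, and 11 and 5 in WT with Dox+E2 and with Dox. A region inside DHCR7, the last enzyme of cholesterol synthesis (chromosome 11, 71432520 to 71438933), had 60 and 57 in Y537S and 5 in WT with Dox+E2, and no peak in the other 9 libraries. A region 36.2 kb from FBXO34 (chromosome 14, 55479001 to 55479453) had 54 and 48 in Y537S and 14 in WT with Dox+E2. Both the induced Y537S values and the WT Dox+E2 value stood alone there.

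Further regions of the 12 strongest Y537S-only lay on chromosome 8 with no protein-coding gene end near, and inside PDLIM7, RSF1, ARVCF, LINGO2, LRRC32, UPF1, USP13 and TECPR2. PDLIM7 encodes a cytoskeletal scaffold, RSF1 a chromatin remodelling subunit and UPF1 the central helicase of nonsense-mediated decay. The 12 had 40 to 63 fragments in the Y537S libraries, all 12 had a peak of 5 to 14 in WT with Dox+E2, and 2 had one in WT with Dox. In K303R with Dox+E2 only the chromosome 8 region had a peak, of 3 fragments, and in K303R with Dox none had.

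**Figure D4:**
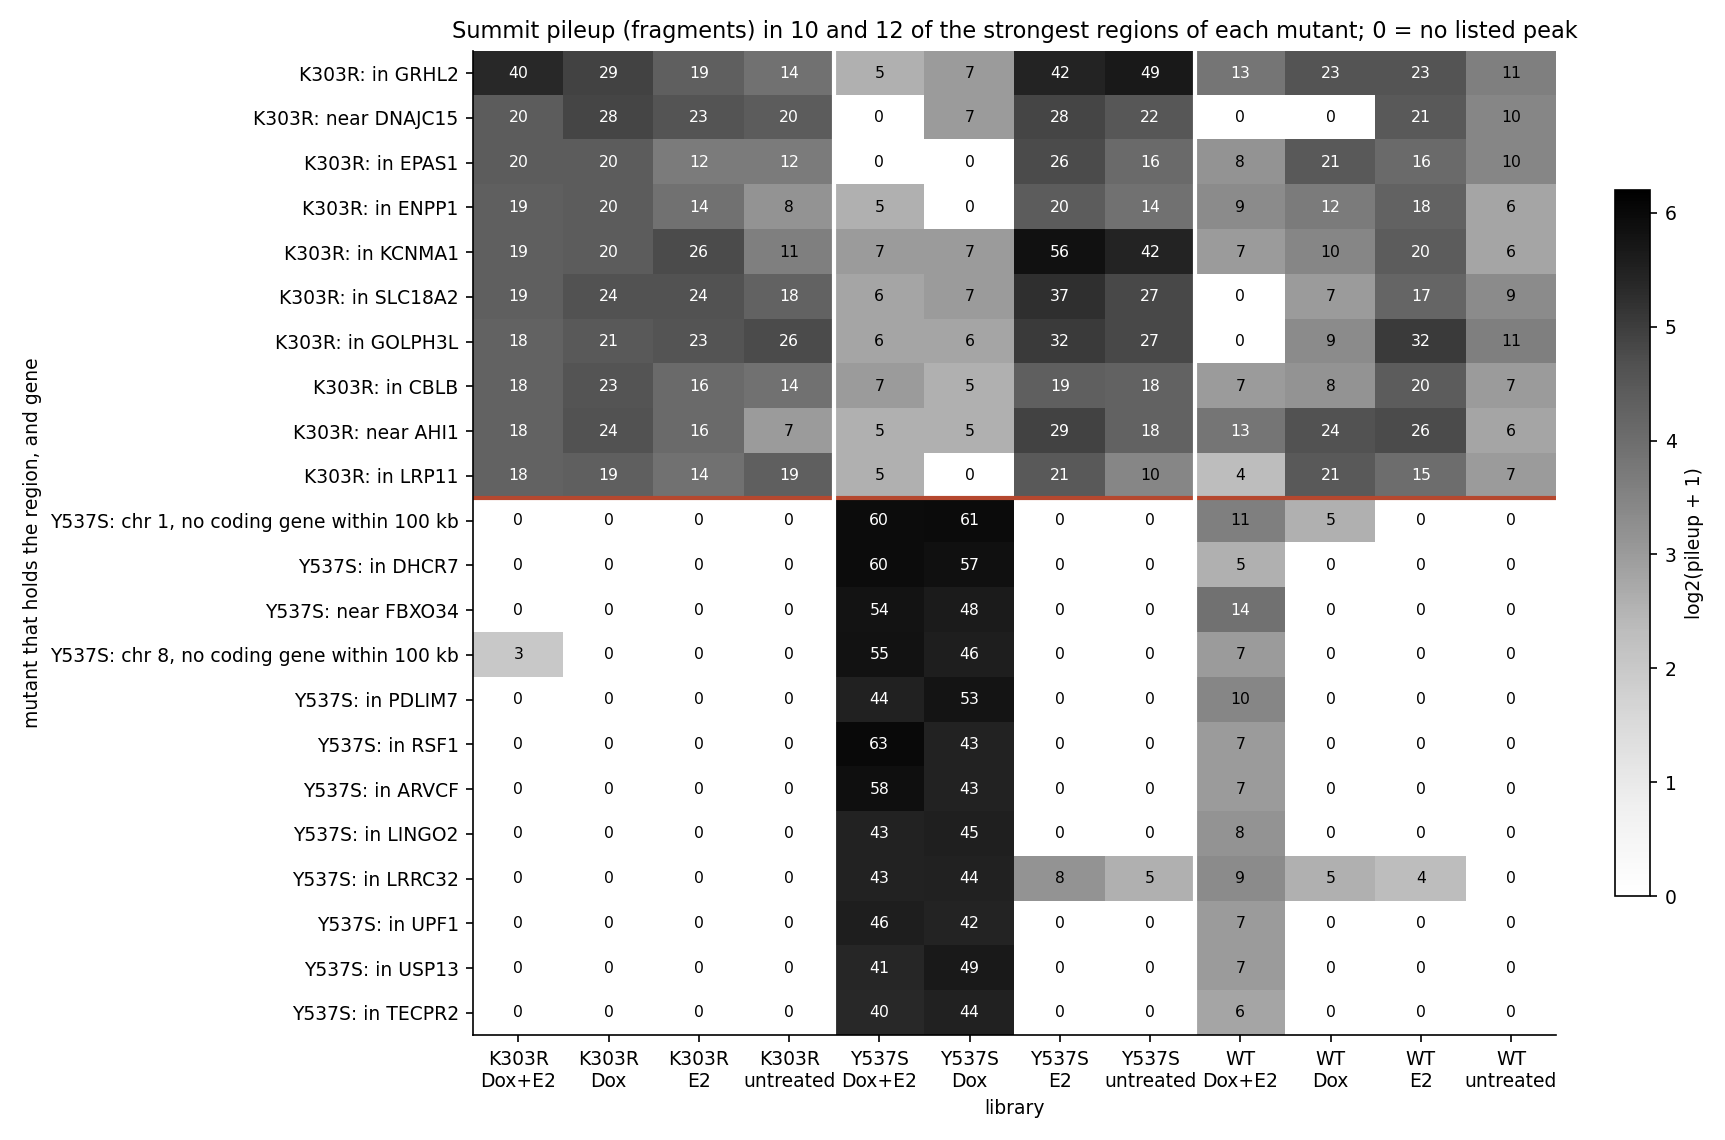
Summit pileup in fragments (number in each cell, shading on a log2 scale, 0 for no listed peak) of 10 of the 12 strongest K303R-only regions (upper block) and the 12 strongest Y537S-only regions (lower block) in the 12 libraries. In the upper block the Y537S columns with Dox hold 0 to 7, values capped by the choice of regions. The Y537S columns without Dox hold 10 to 56. In the lower block the Y537S columns with Dox hold 40 to 63 and WT with Dox+E2 holds 5 to 14.

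Regions seen with Dox only in their own line, and of no strength in the other mutant with Dox, numbered 3808 for K303R and 9364 for Y537S. These were 29.3% and 78.4% of their sets. Absence was judged on full lists, which were longer in Y537S with and without Dox, so the counts are not like for like. The share over all merged regions was not counted. The 8 strongest of K303R had 11 to 16 fragments. Inside STX18, a vesicle fusion gene (chromosome 4, 4541038 to 4541338), the pileup was 11 with Dox+E2 and 16 with Dox in K303R, 8 in WT with Dox, and no peak was listed in the other 9 libraries. Inside GPR176, an orphan receptor gene (chromosome 15, 39829778 to 39830625), it was 12 and 12 in K303R, beside 10 and 6 in Y537S without Dox and 16 in WT with E2. The others lay inside DENND1B, NAALAD2 and CDK8, a kinase of the Mediator complex, and in 3 stretches with no protein-coding gene end within 100 kb. Of the 8, 6 had a peak in Y537S with E2. Regions with no peak in the other 10 libraries numbered 894 for K303R (6.87%) and 6541 for Y537S (54.8%), under the same limit of unequal lists.

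Genes were counted by member regions within 50 kb of their span. Of 19974 protein-coding genes, 9992 had a K303R-only and 9781 a Y537S-only region. At least 2 were near 23.6% of genes for K303R-only and 24.2% for Y537S-only regions, and 31.8% of genes had more K303R-only and 31.2% more Y537S-only regions. Lists below are set beside these shares, but listed genes often had more regions of any kind around them, with medians of 21 for luminal, 20 for AP-1, 18 for cofactor and 15 for estrogen response genes against 9 for all, so the shares are not like for like. Counts given for a gene are its K303R-only and then its Y537S-only regions. The lean to K303R-only over Y537S-only regions given below for the luminal, estrogen response, cofactor, AP-1 and growth factor lists rested on the equal list length. With all peaks and no limit on length, each of these 5 lists had more genes on the Y537S side. All genes shifted the same way, to 13.1% with more K303R-only and 56.1% with more Y537S-only regions. The lists then stood at 20% and 55% (luminal), 14% and 62% (estrogen response), 18.2% and 54.5% (cofactor), 18.8% and 56.3% (AP-1), and 21.4% and 64.3% (growth factor).

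Among 20 luminal transcription factor genes, 12 had more K303R-only regions and 2 more Y537S-only regions, and at least 2 K303R-only regions stood near 12, at least 2 Y537S-only regions near 4. Without the length limit the counts were 4 and 11, and with peaks at the same multiple of background (21.3) in all 4 lists they were 7 and 7, a setting in which 16.6% of all genes had more K303R-only and 46.6% more Y537S-only regions. SPDEF, an ETS factor gene of luminal cells, had 7 and 0, MYB 6 and 0, EHF, an epithelial ETS factor gene, 4 and 0, and GRHL2 9 and 1. The strongest region inside SPDEF (chromosome 6, 34546798 to 34547441) had 10 and 13 in K303R and no peak in Y537S with Dox, beside 17 and 15 in Y537S without. A region inside MYB (chromosome 6, 135212297 to 135212783) had 15 and 13 in K303R and 7 and 6 in Y537S, beside 22 and 23 in Y537S without Dox. LMX1B had the reverse, 2 and 4. FOXA1 had 1 and 1 and GATA3 0 and 0. Of the 58 K303R-only regions near these genes, 37 (63.8%, beside 67.6% of all K303R-only regions) were open in untreated Y537S. Listed only with Dox, and of no strength in Y537S with Dox, were 7, beside 29.3% of all K303R-only regions. Of the 17 Y537S-only regions 2 (11.8%, beside 13.2% of all Y537S-only regions) were open in untreated Y537S. Listed only with Dox were 12 of them, beside 83.0% of all Y537S-only regions.

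Several of these genes lie on chromosomes where K303R-only regions were common. With peaks tied at the length limit left out, K303R-only regions made up 16.7% of the regions of chromosome 6, 14.8% of chromosome 8 and 14.7% of X, against 11.4% of all, and Y537S-only regions 6.17%, 7.99% and 7.14%, against 9.76% of all. Chromosome 22 had 7.63% and 11.51%, and chromosome 18 had 11.8% and 13.7%. Without chromosomes 6, 8 and X, 6 of the 13 remaining luminal factor genes had more K303R-only and 1 more Y537S-only regions, against 30.4% and 33.1% of all genes. Copy number of the lines was not measured, and its part in the chromosome shares was not tested.

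Estrogen response genes showed both patterns side by side. Of 50, 21 had more K303R-only and 12 more Y537S-only regions, which became 7 and 31 without the length limit and 16 and 16 with a gene window of 20 kb. The classic targets GREB1, TFF1 and PGR each had at least 1 Y537S-only region, though PGR had more K303R-only ones. GREB1, a growth gene and coactivator, had 1 and 3. Its strongest Y537S-only region lies inside the gene (chromosome 2, 11550850 to 11551488), with 21 and 21 in Y537S and no peak in the other 10 libraries. TFF1, a secreted trefoil peptide gene, had 1 and 3, and the strongest Y537S-only one, 11.1 kb away (chromosome 21, 42350952 to 42351454), had 18 and 24 in Y537S and 7 and 6 in WT with Dox+E2 and with Dox.

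PGR carried regions of each kind, 3 K303R-only and 1 Y537S-only. Its promoter region, printed above, was K303R-only by the length limit. It had 7 in Y537S with Dox, 6 and 8 in Y537S without Dox and 7 in WT with Dox. Another K303R-only region lay 48.7 kb away (chromosome 11, 101178236 to 101178676), with 7 and 15 in K303R and no peak in K303R without Dox. It had no peak in Y537S with Dox and 9 in Y537S with E2. In WT it had 6 with Dox+E2, 12 with Dox and 5 untreated. The Y537S-only region, 38.9 kb away (chromosome 11, 100990526 to 100990866), had 41 and 28 in Y537S, no peak in K303R and 5 in WT with Dox+E2. CELSR2, a cadherin gene, had 0 and 6, with 27 and 27 in Y537S at its strongest (chromosome 1, 109272279 to 109273216) and 5 in WT with Dox+E2. SLC7A5, an amino acid transporter gene, had 0 and 4. On the K303R side, RAB31, a small GTPase gene, had 6 and 2, NRIP1, a receptor corepressor gene, 5 and 2, and ADCY9, an adenylate cyclase gene, 5 and 2. Of the 63 Y537S-only regions near the list, 55 had no peak in Y537S without Dox, beside 83.0% of all Y537S-only regions. Open in untreated Y537S were 6 (9.52%, beside 13.2%). Of the 75 K303R-only regions, 43 had no peak in K303R without Dox, beside 45.8% of all K303R-only regions. Open in untreated Y537S were 39 (52%, beside 67.6%).

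The receptor gene itself, ESR1, had 5 K303R-only and 2 Y537S-only regions. The strongest K303R-only one (chromosome 6, 151901084 to 151901477) had 14 and 8 in K303R and no peak in Y537S with Dox, beside 11 and 13 in K303R and 13 and 9 in Y537S without Dox. Both Y537S-only ones were absent from the other 10 libraries, with 11 and 12 at one (151833035 to 151833328) and 11 and 11 at the other (152147962 to 152148585).

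Of 22 nuclear receptor cofactor genes, 14 had more K303R-only and 3 more Y537S-only regions (4 and 12 without the length limit). The coactivator genes NCOA2 and NCOA3 had 5 and 1 each, NCOA7 5 and 0, and ARID1B, a chromatin remodelling subunit gene, 7 and 1. PPARGC1A, a coactivator gene of energy metabolism, had 1 and 5. Of the 57 K303R-only regions near these genes 45 were open in untreated Y537S (78.9%, beside 67.6% of all K303R-only regions). Of the 30 Y537S-only regions 2 were (6.67%, beside 13.2% of all Y537S-only regions).

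Of 16 AP-1 family genes, 10 had more K303R-only and 4 more Y537S-only regions (3 and 9 without the length limit). FOSB had 6 and 1, ATF3 4 and 0 and JUNB 3 and 0, while MAF had 0 and 3. A region 14.6 kb from FOS (chromosome 14, 75264011 to 75264455) had 12 and 10 in K303R and 7 and 0 in Y537S, beside 26 and 18 in Y537S without Dox. Of 28 growth factor receptor signalling genes, 14 had more K303R-only and 7 more Y537S-only regions (6 and 18 without the length limit). ERBB4, a neuregulin receptor gene, had 11 and 3, IGF1R 6 and 4, ERBB2 2 and 3 and IRS1 1 and 1. A Y537S-only region 46.2 kb from ERBB2 (chromosome 17, 39641132 to 39642243) had 3 and 0 in K303R and 28 and 25 in Y537S. It also had 6 in untreated K303R, and 6 and 5 in WT with Dox+E2 and with Dox.

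Interferon stimulated genes stood on the other side. Of 20, 5 had more K303R-only and 13 more Y537S-only regions, and without the length limit 0 and 18. At least 2 K303R-only regions lay near 3 of them and at least 2 Y537S-only regions near 8. Near MX1, an antiviral GTPase gene, a region 1.56 kb from the gene (chromosome 21, 41460521 to 41461014) had 3 and 0 in K303R and 20 and 17 in Y537S. It also had 10 and 17 in Y537S without Dox, 8 in untreated K303R and 7 in WT with Dox+E2. IFIT1 and IFIT3 share a region (chromosome 10, 89359353 to 89359705) with 20 and 9 in Y537S, 6 in WT with Dox+E2 and no peak elsewhere. Neighbouring genes of the list can share regions.

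The other lists differed less at equal list length. Blood and endothelial markers and housekeeping genes differed only somewhat less than the estrogen response list. Genes of the cAMP and protein kinase A pathway had 8 and 10 of 22, with PDE4D, a cAMP phosphodiesterase gene, at 9 and 3. Basal and mesenchymal genes had 7 and 7 of 20. Blood and endothelial markers had 8 and 5 of 20 (40% and 25%), and housekeeping genes 9 and 6 of 23 (39.1% and 26.1%). The estrogen response list stood at 42% and 24%. Without the length limit the blood and endothelial and the housekeeping lists also had more genes on the Y537S side, the cAMP list had 2 and 18 and the basal and mesenchymal list 2 and 13.

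**Figure D5:**
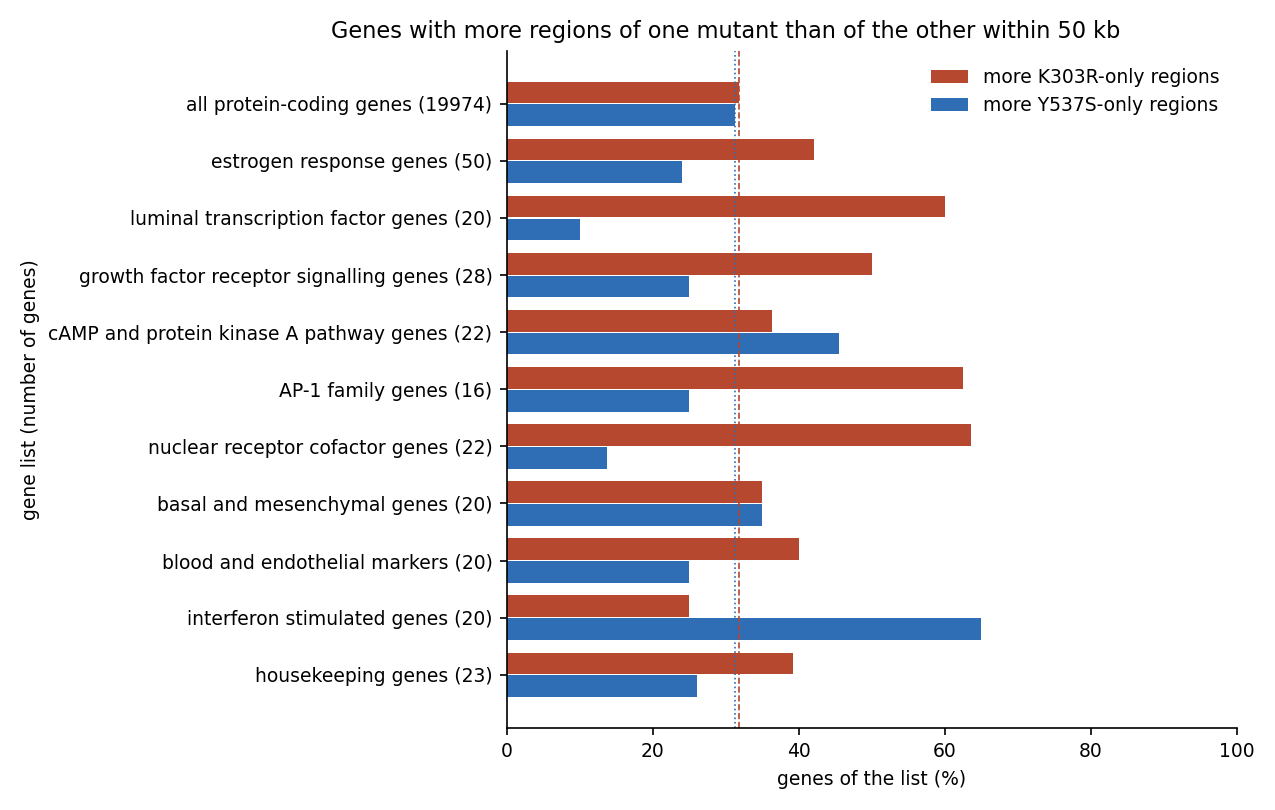
Percent of genes in each list (horizontal axis) with more K303R-only (upper bars) or more Y537S-only regions (lower bars) within 50 kb, at equal list length. Dashed and dotted lines mark the shares over all protein-coding genes, 31.8% and 31.2%; luminal factor genes stand at 60% and 10% and interferon stimulated genes at 25% and 65%.

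Genes with the most member regions were long. AUTS2 had 18 K303R-only and 8 Y537S-only regions of 94 in all, RAD51B 17 and 3 of 93, EXT1 16 and 1 of 49, FOXP1 15 and 1 of 42 and NAALADL2 15 and 1 of 47. FOXP1 is a forkhead repressor gene and EXT1 encodes a heparan sulfate polymerase. On the other side, SHANK2, a scaffold gene of synapses, had 0 K303R-only and 18 Y537S-only regions of 106, FSTL4 had 5 and 17 of 59, AGBL4 7 and 15 of 68, CTNNA2 2 and 14 of 42 and GSE1 6 and 13 of 106. The spans of these 10 genes ranged from 317 to 1501 kb.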

How the data were processed

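Libraries were prepared by tagmentation of nuclei from 50000 cells and sequenced as read pairs of 75 bases, per the labels' protocols. The submitters' processing notes name the build hg38 and the tools FastQC, Bowtie2, SAMtools, Picard and MACS2. Their versions and settings, with any shift for the transposase, were not given in the sources used here. In the deposited peak lists, the fold enrichment is the ratio of summit pileup plus 1 to background plus 1. Each deposited −log10 p matches a Poisson test of that pileup, its −log10 q is the adjusted value, and the deposited score is 10 times the −log10 q without decimals. They are the authors' values for single peaks.

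Pileup and background were recovered from the steps of the fold, whole to within 0.000709. Ties at the length limit went by fold and then position, which favours the first chromosomes: 2075 of 13431 tied peaks were kept in Y537S with Dox+E2, 2697 of 13331 in Y537S with Dox, and 1046 of 6516 in K303R with Dox+E2. Chromosome shares therefore leave ties out. Members, the 10 gene lists and the alternatives were chosen with earlier results of these data known, and 3 alternatives (the same multiple of background, gene lists and chromosomes without ties, chromosomes left out) were added after seeing the data. Named regions are, per direction, the 12 strongest by the smaller −log10 q, the 8 strongest of those listed only with Dox and absent from the other mutant with Dox, and the strongest over promoter windows; named genes are the 5 with most regions, examples of list genes with at least 2, and ESR1, GREB1, TFF1, PGR, FOXA1, GATA3, ERBB2, IGF1R and IRS1. Gene spans and promoter windows are RefSeq's (GRCh38.p14), and 15812 of 19974 coding genes had a start. All list genes were matched, 1 through an older symbol. Results for some genes under these rules, and 1 further list, are not reported here. Python 3.11.15, pandas 2.3.3 and scipy 1.17.1 were used. The counting was tested on simulated libraries for losses planted in Y537S at strong regions. The Y537S-only direction and weak regions were not simulated in this way.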

Additional observations from a re-analysis of the deposited data

How the results depend on the processing

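With every peak and no length limit there were 7762 K303R-only and 23177 Y537S-only regions, 56.7% of the K303R-only ones were open in untreated Y537S, and 4.35% and 3.48% lay near a gene start. With each list limited to 39522 peaks, the length of the shortest of the 12, there were 5411 and 7200 regions, 65.5% and 9.79% open in untreated Y537S, 11.8% and 3.24% near a start, and 6095 genes with a K303R-only region. At a −log10 q of at least 5 these were 3390 and 25891 regions, 75.9% and 22.7%, 3.36% and 4.12%, and 3620 genes. At 10 they were 2216 and 18823 regions, 94.5% and 31.97%, 4.56% and 5.31%, and 2662 genes. With absence judged on the full lists of the other mutant there were 7202 K303R-only and 11285 Y537S-only regions. Of the K303R-only ones 57.5% were open in untreated Y537S and 4.29% lay near a start, and 6465 genes had one. With pileups thinned to equal signal there were 7730 K303R-only and 13818 Y537S-only regions, 76.2% and 16.6% were open, and 6.14% and 3.12% near a start. With the Dox libraries alone there were 36257 and 28088 regions, 50.9% and 19.9% open, 10.8% and 4.28% near a start, and 15982 genes with a K303R-only region. With the Dox+E2 libraries alone they were 30768 and 22953 regions, 56.5% and 22.05%, 10.5% and 5.29%, and 15268 genes. At the same multiple of background in all 4 lists, chosen after seeing the data, there were 7495 K303R-only and 16399 Y537S-only regions. Of these 72.3% and 16.7% were open, and 5.22% and 3.04% lay near a start. With peaks that cover at least 50% of a region there were 12991 K303R-only and 18196 Y537S-only regions, 72.2% and 20.3% open, and 7.13% and 3.77% near a start. Summits in windows of fixed width put 4.83% of K303R-only regions near a start, a distance of 2500 bp put 12.4% and 6.51% there, and lookups in lists of equal length found 15.9% and 1.43% open in untreated Y537S. The causes of these shifts were not tested.

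Leaving out 1 library at a time gave 16367 to 31074 K303R-only regions (25253 without K303R Dox, 31074 without K303R Dox+E2) and 14196 to 19450 Y537S-only regions (19450 without K303R Dox+E2, 19347 without Y537S Dox, 19026 without Y537S Dox+E2). The shares open in untreated Y537S were then 46.3 to 71.5% and 14.6 to 20.9%, those near a start 8.54 to 8.86% and 3.04 to 3.89%, and the genes 11702 to 15139 and 10997 to 12573. Fewer libraries were then required to agree, which by construction admits more regions. In every alternative run, the share open in untreated Y537S was higher for K303R-only regions, and so was the share of windows with GGTCA for Y537S-only ones (26.8 to 39.2% of K303R-only and 46.4 to 68.8% of Y537S-only windows).

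Balances of gene lists, as genes with more K303R-only minus genes with more Y537S-only regions, changed sign without the length limit for 7 lists: estrogen response (-24), growth factor (-12), cofactor (-8), luminal (-7), AP-1 (-6), housekeeping (-4), and blood and endothelial (-3). At the same multiple of background 5 did: estrogen response (-24), growth factor (-5), housekeeping (-5), blood and endothelial (-4), and cofactor (-2). The shares over all genes also moved to the Y537S side in each setting (13.1% and 56.1%, then 16.6% and 46.6%). The interferon list stayed on the Y537S side in each. No paired analysis was possible because these counts and shares come from no test. The hormone-matched pairs are the Dox and the Dox+E2 libraries alone, given above. Depth limits absence: a listed peak needs at least 3 to 5 fragments, and the Y537S lists with Dox reached a background of 0.364 and 0.329 fragments.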

Other observations

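Of the 31747 regions open in all 4 libraries with Dox, 993 (3.13%) had a signal over background more than 2 times higher in each K303R library than in each Y537S library, and 1532 (4.83%) the reverse. On the K303R side, the region with the largest such ratio lay on chromosome 6 (15026539 to 15027282), with no protein-coding gene end near. Its pileup was 38 with Dox+E2 and 34 with Dox in K303R, and 11 and 8 in Y537S, beside 35 and 27 in Y537S with E2 and untreated. The next stood inside PARP10, an ADP-ribosyltransferase gene, with 30 and 23 in K303R and 8 and 8 in Y537S, beside 77 and 64 in Y537S without Dox. The others were near KLHL38, inside CAPN2, a calpain protease gene, which had 63 and 59 in K303R and 17 and 21 in Y537S, and near LRATD2.

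On the Y537S side, a region 3.73 kb from RBPMS2, an RNA-binding protein gene, had 6 and 3 in K303R and 82 and 87 in Y537S, no peak without Dox in any of the 3 lines, and 23 in WT with Dox+E2 beside 5 in WT with Dox. MAPKAPK2, a stress kinase gene, held one with 7 and 3 in K303R and 89 and 91 in Y537S, and 16 and 17 in WT. UFD1, of the protein degradation machinery, held one with 8 and 6 in K303R and 94 and 88 in Y537S, and 41 and 13 in WT. ATP6AP1, a proton pump subunit gene, had 6 and 3 in K303R and 64 and 63 in Y537S, and SMARCB1, a chromatin remodelling subunit gene, 4 and 4 in K303R and 49 and 43 in Y537S.

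The K303R libraries overlapped unequally with Y537S. Both Y537S libraries with Dox and K303R with Dox+E2 alone shared 7460 regions (6.29% of all merged regions). Both Y537S libraries and K303R with Dox alone shared 2184 (1.84%). The K303R libraries also differed in signal over the regions open in all 4, at 62.5 times background with Dox+E2 and 52.5 with Dox. The part of hormone in this difference was not tested.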
